A study of Bos indicus with 6 samples.

Results

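The elastic fibre proteins and lysyl oxidases were examined in the isthmus as 10 genes, ELN, FBN1, MFAP4, MFAP5, EMILIN1, FBLN1, FBLN5, LOX, LOXL1 and LOXL2. They were chosen by symbol, each symbol matched 1 row, and so 10 of the 24616 rows were taken. All 10 passed the filter on low and variable values, a mean above 5 and above the SD over the 6 libraries.

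The libraries came from the isthmus, the oviduct segment next to the uterus, of 6 healthy multiparous, non-lactating Nelore (Bos indicus) cows killed on day 4 after a GnRH injection, with 1 library per cow. All had received an intravaginal progesterone device of 1 g with 2 mg of estradiol benzoate, PGF at device removal and again later, and a GnRH agonist to induce ovulation. In the LF/LCL group (large follicle, large corpus luteum; cows 79, 527 and 617) PGF had also been given when the device was inserted, and the GnRH agonist followed device removal by 42 h. In the SF/SCL group (small follicle, small corpus luteum; cows 97, 856 and 489215) that interval was 30 h, with no PGF at insertion, so these treatments cannot be told apart. The 3 cows of each group had been picked as the top of the LF/LCL and the bottom of the SF/SCL ranking on follicle, corpus luteum and hormone measures, so the groups are extremes of their treatments. The tissue covered the whole thickness of the tube.

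Elastic fibres let a tissue recoil after stretch. They consist of a core of elastin, secreted as tropoelastin, laid down on microfibrils built from fibrillin with associated glycoproteins. Fibulins and emilins bind elastin and microfibrils during assembly, and lysyl oxidases oxidize lysine residues so that elastin and collagen become cross-linked. In a tube such as the oviduct these proteins are made by smooth muscle cells and fibroblasts of the wall rather than by the luminal epithelium.

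Values are normalized counts, that is reads per gene divided by the size factor of the library, and log2 fold changes are SF/SCL over LF/LCL on log2(value + 1), so that a negative value is lower in SF/SCL. The libraries held from 23899117 to 34193164 reads. Members had from 232 reads, with a 95% counting interval of 203 to 264, for LOX in cow 489215, to 31704 reads for EMILIN1 in cow 527. Such an interval covers counting error only. Cow 489215 stood apart from all others, being the highest of the 6 libraries for 36.7% of the 15387 genes tested and the lowest for 35.7%. The fold change of each member and the median of each list are therefore given also without that cow.

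The log2 fold change was negative for 9 of the 10 genes, as for 51.4% of all genes tested, and the median log2 fold change of the 10 was -0.70, against -0.02 over all genes tested. The clearest separation was in EMILIN1, FBLN1, FBN1 and LOX, whose SF/SCL values all lay below all LF/LCL values. These 4 of 10 compare with 18.1% of all genes tested without overlap in either direction, and 8.60% in this direction. FBLN1 and LOX, among those 4, were already listed as higher in LF/LCL by the study of these same libraries. Counts that include them are therefore no independent support. None of the 10 passed a Benjamini-Hochberg adjusted p of 0.05 in limma, in which 0% of all genes passed, and 5 of 10, those 4 and ELN, had an unadjusted p under 0.05, against 8.66% of all genes, or 4.48% in this direction. The edgeR quasi-likelihood test also called 0 of 10 (0% of all genes), with 5 at an unadjusted p under 0.05, against 8.49% of all genes and 4.43% in this direction. DESeq2 called 3 of 10 (EMILIN1, FBLN1 and LOX), against 2.66% of all genes and 1.34% in this direction.

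Without cow 489215 all 10 log2 fold changes were negative, as for 50.1% of all genes tested. The groups then did not overlap for 9 of 10, against 52.0% of all genes in either direction and 24.9% in this one. On these 5 cows limma called 5 of 10, all lower in SF/SCL (ELN, EMILIN1, FBLN1, LOX and LOXL1), against 18.2% of all genes in either direction and 7.92% in this one. At an unadjusted p under 0.05 it had 9 of 10, against 33.9% and 15.9%. The edgeR test called 4 of 10 without that cow, against 18.1% and 7.63%, and had 9 at an unadjusted p under 0.05, against 33.7% and 15.7%. DESeq2 called 8 of 10, against 25.8% of all genes in either direction, and had 10 at an unadjusted p under 0.05, against 34.4%.

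**Figure D1:**
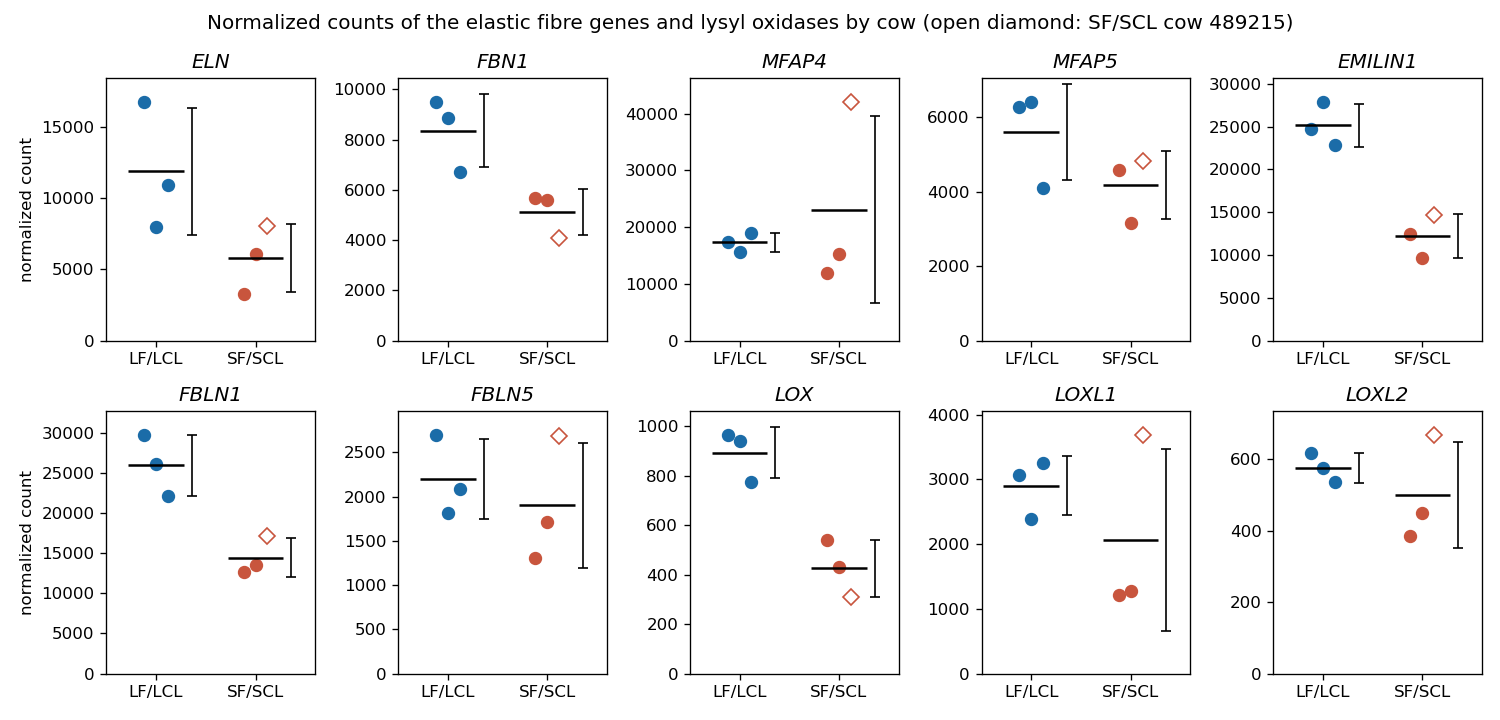
Normalized counts (y axes, from 0) of the 10 genes in the 3 LF/LCL and 3 SF/SCL cows; points are cows, the open diamond is SF/SCL cow 489215, horizontal lines are group means and bars are ± 1 SD. The groups do not overlap for FBN1, EMILIN1, FBLN1 and LOX, while cow 489215 is the highest point for MFAP4, LOXL1 and LOXL2.

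ELN (ENSBTAG00000019517) encodes tropoelastin, the soluble precursor of the elastic core. Its normalized counts were 16749, 7984 and 10950 in LF/LCL cows 79, 527 and 617, and 3273, 6076 and 8032 in SF/SCL cows 97, 856 and 489215. Cow 79 was the highest and cow 97 the lowest, and the groups overlapped only because cow 489215 lay 1 place above cow 527. The means were 11894 ± 4458 and 5794 ± 2392 (SD, n = 3 each), 2.05 times as high in LF/LCL. The log2 fold change was -1.07 (95% interval -2.06 to -0.07, adjusted p = 0.540 from limma). ELN varied most between the LF/LCL cows, with a coefficient of variation of 37.5%, against 7.11% for LOXL2, the steadiest. Without cow 489215 the ELN groups did not overlap, and the log2 fold change was -1.35 (adjusted p = 0.0481 from limma), just inside the threshold. Without that cow the adjusted p was 0.0545 from edgeR, just outside it, and 0.000647 from DESeq2.

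The overlap of ELN also depended on the scaling. The normalized values of cow 489215 added up to 33913666, against 25901138 to 26900121 in the other libraries, so that scaling by the read total instead lowers that cow relative to the others. In CPM, reads scaled by that total, ELN was at 623, 305 and 408 in LF/LCL and at 126, 234 and 237 in SF/SCL. On that scale the ELN groups did not overlap, and its log2 fold change was -1.15 (adjusted p = 0.474 from limma). Without cow 489215 the adjusted p of ELN on that scale was 0.0510 from limma, outside the threshold.

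FBN1 (ENSBTAG00000002278) encodes fibrillin 1, the chief building block of microfibrils. It was at 9485, 8848 and 6721 in LF/LCL and at 5677, 5582 and 4063 in SF/SCL, with cow 489215 the lowest. The groups did not overlap, and the log2 fold change was -0.71 (SE 0.23, adjusted p = 0.452 from limma). Without cow 489215 the remaining SF/SCL cows were nearly equal, at a mean of 5629 ± 66.9 (SD, n = 2), and the log2 fold change was -0.55 (adjusted p = 0.0531 from limma), just outside the threshold.

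The microfibril-associated glycoproteins MFAP4 and MFAP5 did not show that separation. MFAP4 (ENSBTAG00000006187), which binds elastin and fibrillin, was at 17404, 15637 and 18905 in LF/LCL and at 11963, 15182 and 42006 in SF/SCL. The value of cow 489215 was 2.43 times the LF/LCL mean and 3.09 times the mean of the other SF/SCL cows, and MFAP4 was the 1 member with a higher mean in SF/SCL. The MFAP4 log2 fold change was 0.19 (95% interval -0.94 to 1.32, adjusted p = 0.940 from limma), and it was -0.36 without cow 489215 (adjusted p = 0.120 from limma), where the groups did not overlap. MFAP5 (ENSBTAG00000000310), which binds fibrillin, was at 6282, 6401 and 4102 in LF/LCL and at 4590, 3145 and 4816 in SF/SCL. It was the member whose groups overlapped with or without cow 489215, since LF/LCL cow 617 lay below SF/SCL cows 97 and 489215. The log2 fold change of MFAP5 was -0.42 (95% interval -1.05 to 0.22), and -0.53 without cow 489215.

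EMILIN1 (ENSBTAG00000011324) encodes a glycoprotein at the interface of elastin and microfibrils. It had the smallest p of the members. Its normalized counts were 24734, 27847 and 22891 in LF/LCL and 12424, 9611 and 14717 in SF/SCL, so that the lowest LF/LCL cow was well above the highest SF/SCL cow. The means were 25157 ± 2505 and 12251 ± 2557 (SD, n = 3 each), 2.05 times as high in LF/LCL. The log2 fold change was -1.06 (SE 0.23, adjusted p = 0.367 from limma), adjusted p = 0.00354 with DESeq2, and it was -1.20 without cow 489215 (adjusted p = 0.00457 from limma).

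The fibulins, calcium-binding glycoproteins of elastic fibres and basement membranes, differed from each other. FBLN1 (ENSBTAG00000012088), found with elastin in vessel walls and connective tissue, was at 29741, 26126 and 22097 in LF/LCL and at 12639, 13556 and 17207 in SF/SCL, with no overlap. Its log2 fold change was -0.85 (SE 0.22, adjusted p = 0.405 from limma), adjusted p = 0.0240 with DESeq2, and -0.98 without cow 489215 (adjusted p = 0.00717 from limma). FBLN5 (ENSBTAG00000018123), which brings tropoelastin and lysyl oxidases to the microfibril, was at 2694, 1820 and 2081 in LF/LCL and at 1304, 1714 and 2684 in SF/SCL. Cow 489215 was level with the highest LF/LCL cow for FBLN5, while the other SF/SCL cows were below every LF/LCL cow. The FBLN5 log2 fold change was -0.26 (95% interval -0.99 to 0.48) with all cows and -0.54 without cow 489215 (adjusted p = 0.107 from limma).

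Among the 3 lysyl oxidases, cow 489215 was the lowest of all cows for LOX and the highest for LOXL1 and LOXL2. LOX (ENSBTAG00000012994), the founding enzyme of the family, which acts on collagen and elastin, was at 964, 939 and 775 in LF/LCL and at 540, 429 and 309 in SF/SCL. The groups did not overlap. The means were 892 ± 103 and 426 ± 115 (SD, n = 3 each). The log2 fold change of LOX was -1.10 (SE 0.27, adjusted p = 0.381 from limma), adjusted p = 0.0217 with DESeq2, and -0.88 without cow 489215 (adjusted p = 0.0155 from limma).

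LOXL1 (ENSBTAG00000009086), the family member tied to elastin renewal through FBLN5, was at 3063, 2391 and 3259 in LF/LCL and at 1208, 1282 and 3683 in SF/SCL. Cows 97 and 856 were close together and far below every LF/LCL cow, whereas cow 489215 was the highest of all 6. The log2 fold change was -0.69 (95% interval -1.76 to 0.39, adjusted p = 0.762 from limma) with all cows and -1.21 without cow 489215 (adjusted p = 0.00484 from limma). LOXL2 (ENSBTAG00000006214), best known for cross-linking collagen IV, was at 617, 575 and 535 in LF/LCL and at 384, 449 and 667 in SF/SCL. Again cow 489215 was the highest and the other SF/SCL cows the lowest. Its log2 fold change was -0.24 (95% interval -0.87 to 0.39), and -0.47 without cow 489215 (adjusted p = 0.0643 from limma).

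**Figure D2:**
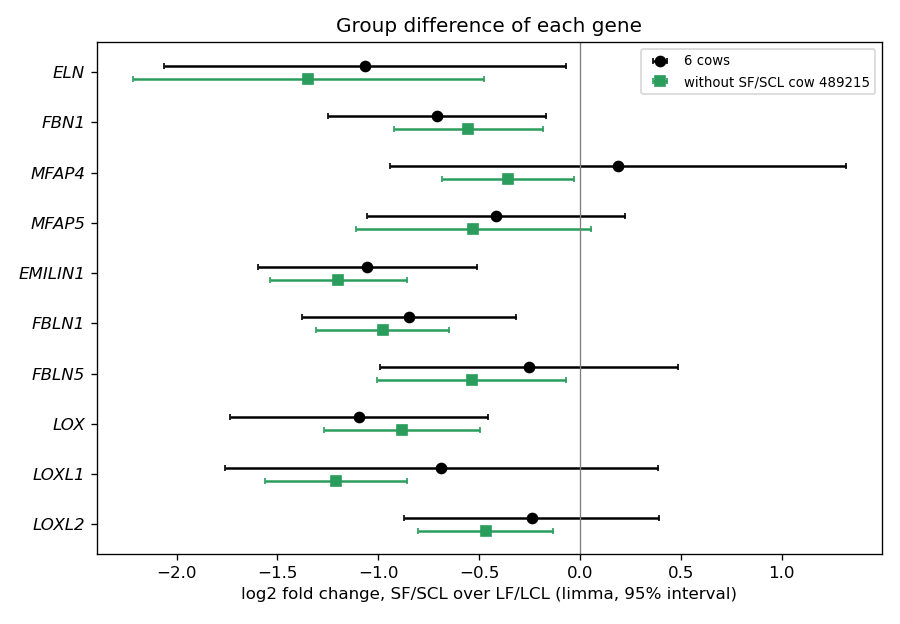
Log2 fold change of each gene, SF/SCL over LF/LCL, from limma with 95% intervals (x axis), for all 6 cows (circles) and without SF/SCL cow 489215 (squares). All 10 squares lie below 0, and MFAP4 is the gene whose estimate moves across 0, from 0.19 to -0.36.

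Cow 489215 was thus the highest library for 3 members (MFAP4, LOXL1 and LOXL2) and the lowest for 2 (FBN1 and LOX), and cow 97 was the lowest for 6. In pairs of members, the mean absolute difference of their log2 values, each centred on its own mean over the 6 libraries, ran from 0.13 to 0.79 with a median of 0.37 over 45 pairs. The closest pairs were FBLN5 with LOXL2 (0.13), EMILIN1 with FBLN1 (0.18) and FBN1 with LOX (0.20). The farthest was MFAP4 with LOX (0.79). These are descriptions over 6 libraries that share the same cows and scaling.

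**Figure D3:**
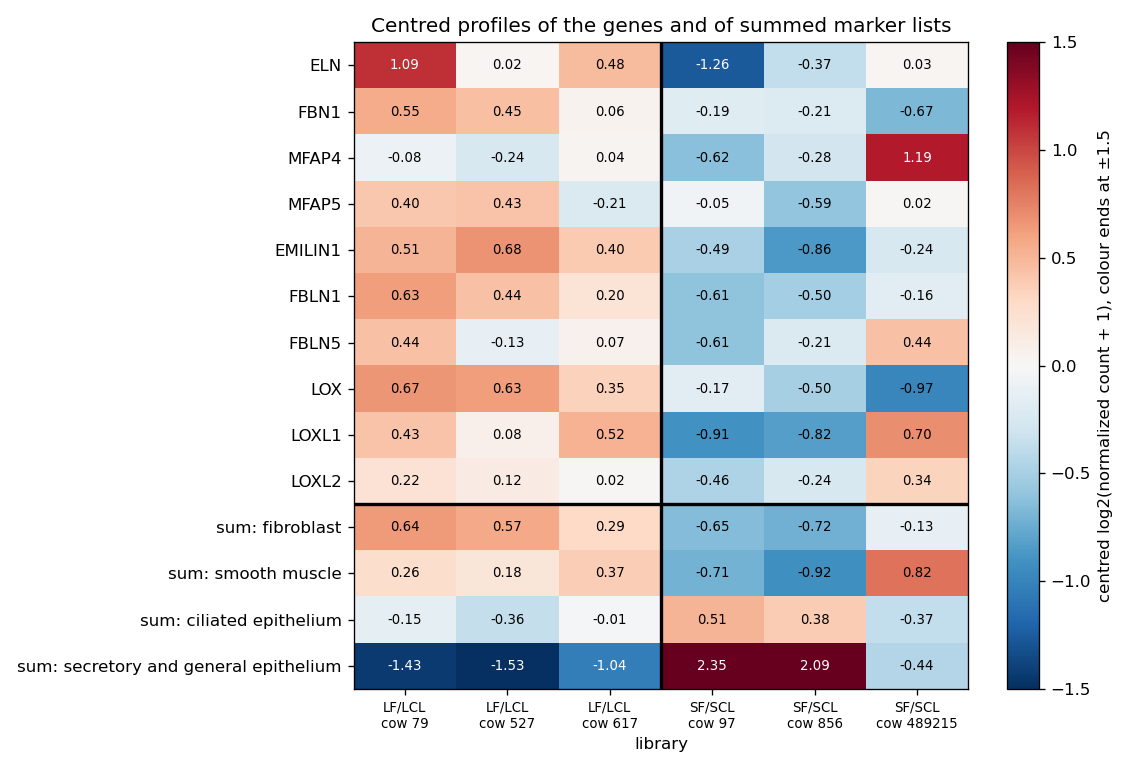
Log2(normalized count + 1) of the 10 genes and of 4 summed marker lists in each library (columns), centred on the mean of each row, with red above and blue below the mean. The column of cow 489215 holds both the highest value of MFAP4 (1.19) and the lowest of LOX (-0.97).

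The tissue held markers of the wall and of the epithelium in every library, and these too differed between the groups. All 10 fibroblast markers had a negative log2 fold change, against 51.4% of all genes tested, with a median of -0.93 (-0.98 without cow 489215). Of them 5 were lower without overlap, against 8.60% of all genes. LUM, COL1A1, COL3A1 and PI16, among those 5, were already listed as higher in LF/LCL by the study of these same libraries. Their count is therefore no independent support. COL1A1, a fibrillar collagen chain, was at 84623 to 101199 in LF/LCL and at 35976 to 54405 in SF/SCL. The summed level of the fibroblast list was 391390 to 497522 in LF/LCL and 193286 to 292306 in SF/SCL, and 0 fibroblast markers stood at 0 in any library. All 10 smooth muscle markers found (of 11, as ACTG2 had no row under that symbol) also had a negative log2 fold change, with a median of -0.61. Without cow 489215 that median was -1.0, and limma called 8 of the 10 lower in SF/SCL, against 7.92% of all genes. Their summed level was 825769 to 940434 in LF/LCL, 386212 and 446718 in SF/SCL cows 97 and 856, and 1283250 in cow 489215. In that cow ACTA2, the smooth muscle actin, reached 533926, against 229408 to 311661 in LF/LCL and 102587 and 106962 in the other SF/SCL cows.

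The epithelial markers ran the other way in part. Among the ciliated markers 6 of 7 had a positive log2 fold change, whereas 51.4% of all genes tested had a negative one. The median over the list was 0.53 (1.15 without cow 489215). The list's summed level was 27812 to 35331 in LF/LCL, 46302 and 50812 in cows 856 and 97, and 27526 in cow 489215. All 5 tested markers of secretory and general epithelium had a positive log2 fold change, with a median of 0.76 (0.69 without cow 489215). EPCAM, an adhesion protein of epithelial cells, was at 8530 to 12286 in LF/LCL and at 15871 to 20313 in SF/SCL. Together these 5 added up to 23431 to 35463 in LF/LCL and to 47404, 39921 and 53481 in cows 97, 856 and 489215. OVGP1, the oviductal glycoprotein, did not pass the filter, and was at 287 to 1950 in LF/LCL, 730 in cow 489215, and 325158 and 271794 in cows 97 and 856. The part of these differences in the values of the members was not tested, and in bulk tissue fewer cells of a type cannot be told apart from less RNA per cell. The endothelial markers had a median log2 fold change of -0.32 (6 of 7 found, all negative) with all cows and of -0.60 without cow 489215. The leukocyte markers had one of -0.19 (5 of 6 negative), which was -0.02 without that cow (3 of 6 negative). Of the mesothelial list 1 of 6 genes passed the filter with all cows, BNC1, with a log2 fold change of -1.97 (-1.83 without cow 489215). Without that cow WT1 and LRRN4 passed too, with log2 fold changes of 2.73 and -4.91, so the list moved in both directions. WT1 was at 1180 to 1302 in LF/LCL and at 8611, 7984 and 1037 in SF/SCL cows 856, 97 and 489215. LRRN4 was at 175 to 412 in LF/LCL and at 3.80 to 16.3 in SF/SCL. MSLN was at 808 to 1871 in LF/LCL and at 17590, 18098 and 2299 in SF/SCL cows 856, 97 and 489215. Of the 4 adipocyte genes 2 had a row, ADIPOQ and CIDEC, and these were nearly absent, with a summed level of at most 15.8. PLIN1 and LEP had no row under those symbols.

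Set against the summed fibroblast markers of the same library, most of which comes from the collagen chains COL1A1, COL1A2 and COL3A1, the members had another order. On this scale, the log2 ratio of a member to the marker sum, 7 of the 10 differences were above 0 and 4 genes (MFAP4, MFAP5, FBLN5 and LOXL2) were higher in every SF/SCL cow than in every LF/LCL cow. Without cow 489215 FBN1, FBLN1 and LOX also lay higher in SF/SCL without overlap. The share over all genes was not computed on this scale. The marker sum itself was lower in SF/SCL, at 193286 to 292306 against 391390 to 497522 in LF/LCL. A gene with the same value in every library would therefore also lie higher in SF/SCL on this scale. EMILIN1 had ratios of -4.33, -4.09 and -4.10 in LF/LCL and -4.04, -4.33 and -4.31 in SF/SCL, a difference of -0.06 between the group means. FBLN1 was at -4.13 ± 0.06 in LF/LCL and -3.98 ± 0.13 in SF/SCL (SD, n = 3 each), a difference of 0.15, or 0.21 without cow 489215. The ratio of LOX was -9.01, -8.98 and -8.98 in LF/LCL, -8.56 and -8.82 in cows 97 and 856, and -9.89 in cow 489215. For LOX the 3 LF/LCL cows were thus almost identical, and the SF/SCL cows lay on both sides of them. The ratio of LOXL2 was -9.62 ± 0.09 in LF/LCL and -8.86 ± 0.17 in SF/SCL (SD, n = 3 each), with no overlap, so that LOXL2 was higher in SF/SCL relative to these markers.

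Set against the smooth muscle markers, 9 of 10 members overlapped between the groups, and 6 of 10 differences were below 0. Without cow 489215, whose smooth muscle sum was the highest, 3 were below 0, and FBN1, MFAP4, MFAP5 and LOXL2 were higher in SF/SCL without overlap. The share over all genes was not computed here either. In those 5 cows the marker sum was 386212 to 446718 in SF/SCL and 825769 to 940434 in LF/LCL. A gene with the same value in each of them would thus also lie higher in SF/SCL. LOXL1, which in normalized counts ranged from 1208 to 3683, had log2 ratios of -8.16, -8.43 and -8.17 in LF/LCL and of -8.53, -8.23 and -8.44 in SF/SCL, cow 489215 included. MFAP4 was the gene without overlap, at -5.67 ± 0.05 in LF/LCL and -4.94 ± 0.28 in SF/SCL (SD, n = 3 each), higher in SF/SCL in every cow. LOX in cow 489215 had a ratio of -12.02, against -10.25 to -9.69 in the other 5 cows. EMILIN1 and FBLN1 in that cow, at -6.45 and -6.22, were likewise below all other cows, whose ratios were -5.36 to -4.89 and -5.41 to -4.83. The same held for ELN, FBN1, MFAP5, FBLN5 and LOXL2, so only MFAP4 and LOXL1 were not lowest in that cow. These ratios were computed as descriptions and carry no test.

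**Figure D4:**
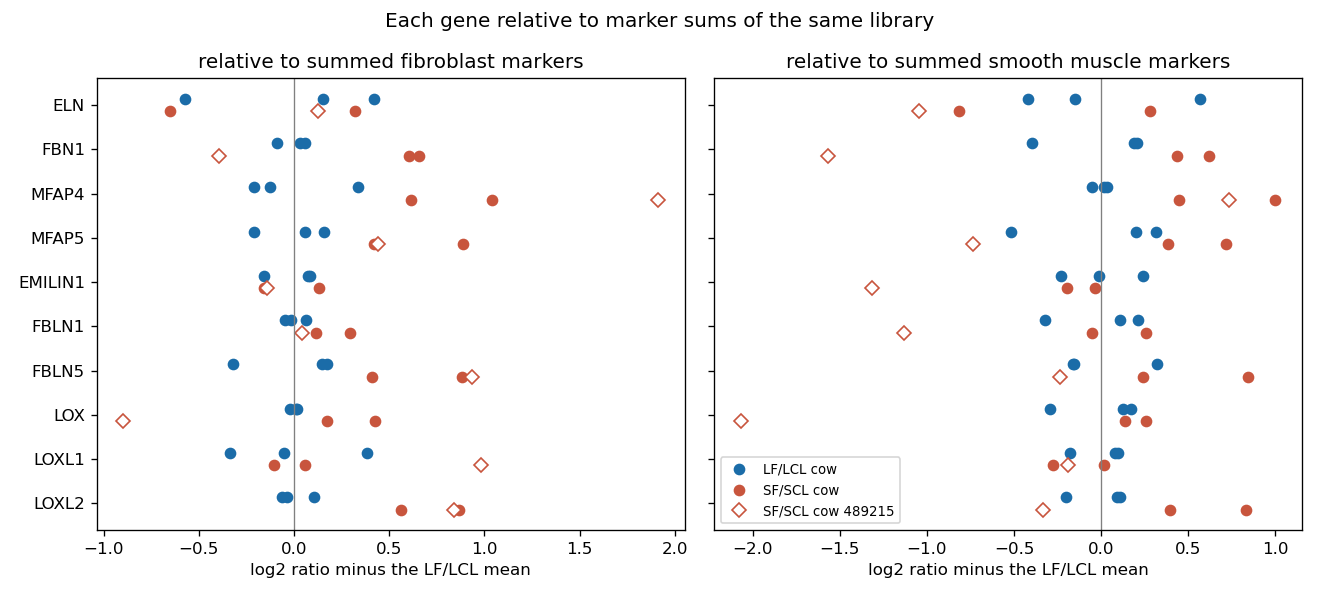
Log2 ratio of each gene to the summed fibroblast markers (left) and summed smooth muscle markers (right) of the same library, shown as the difference from the LF/LCL mean (x axes); points are cows. On the left MFAP4, MFAP5, FBLN5 and LOXL2 lie to the right of all LF/LCL cows in all 3 SF/SCL cows, and on the right LOX in cow 489215 lies farthest to the left.

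The relatives of these genes in microfibrils and elastin assembly were taken as a list of 23, of which 22 were found and tested. Of the 22, 21 had a negative log2 fold change, against 51.4% of all genes tested. The median was -0.77 (-0.54 without cow 489215), and 8 were lower in SF/SCL without overlap against 8.60% of all genes. An unadjusted p under 0.05 in limma was reached by 6 of 22, all lower in SF/SCL. Of all genes 8.66% reached it, or 4.48% in this direction. The adjusted limma threshold was passed by 0 of the 22. FBN2, the fibrillin most abundant in development, was at 1139, 2630 and 1479 in LF/LCL and at 423, 478 and 603 in SF/SCL. FBN2 had a log2 fold change of -1.73 (SE 0.35), the most negative of the list. LTBP2, a latent TGF-beta binding protein that sits on microfibrils, was at 4967, 4768 and 5280 in LF/LCL and at 1940, 2513 and 1823 in SF/SCL, a log2 fold change of -1.27 (SE 0.18). LTBP1, which tethers latent TGF-beta to the matrix, was at 10900 to 16073 and 6285 to 7699. FBLN7, EMILIN2, EMILIN3, ADAMTS17 and THSD4 were the others without overlap. The study of these same libraries had already listed LTBP1, LTBP2 and FBLN7 as higher in LF/LCL, so the count is no independent support.

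Other relatives overlapped between the groups. LTBP3 was at 5178 to 5749 in LF/LCL and at 4696 to 5247 in SF/SCL, and LTBP4 had a log2 fold change of -0.10 (SE 0.23), or -0.18 without cow 489215. EFEMP1, a fibulin, was the 1 gene of the list with a positive log2 fold change, 0.28 (SE 0.37), or 0.65 without cow 489215. EFEMP2, a fibulin that brings LOX to elastin, had one of -0.69 (-1.12 without cow 489215), with cow 489215 (2202) above all LF/LCL cows (1879 to 2038) and the other SF/SCL cows at 867 and 929. MFAP2, another fibrillin-binding glycoprotein, had the same order, at 1318 to 1583 in LF/LCL, 641 and 706 in cows 97 and 856, and 1768 in cow 489215. EFEMP2 and MFAP2 are thus placed like LOXL1 and LOXL2 among the members. THSD4, an ADAMTS-like protein of microfibrils, was at 1800 to 2125 in LF/LCL, 1374 and 1487 in cows 97 and 856, and 230 in cow 489215. Without cow 489215 limma called 6 of the 22, all lower in SF/SCL (FBN2, EFEMP2, MFAP2, LTBP1, LTBP2 and THSD4), against 7.92% of all genes.

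Genes that act with or upstream of the lysyl oxidases were a list of 13, all tested, with a median log2 fold change of -0.50 (-0.49 without cow 489215). Of these 11 were negative, against 51.4% of all genes tested. Lower without overlap were 3 (FN1, PCOLCE and PLOD1), against 8.60% of all genes. FN1 and PLOD1 had already been listed as higher in LF/LCL by the study of these same libraries. The adjusted limma threshold was passed by 0. Without cow 489215, 5 of 13 passed it, all lower in SF/SCL (FN1, PCOLCE, PLOD1, PLOD3 and POSTN), against 7.92% of all genes. FN1, fibronectin, which binds LOX and aids its activation, was at 15331, 20725 and 19495 in LF/LCL and at 7346, 5707 and 11574 in SF/SCL. POSTN, periostin, a scaffold for LOX activation, was at 125390 to 151479 in LF/LCL, 51324 and 62725 in cows 97 and 856, and 198258 in cow 489215. BMP1, the protease that releases active LOX from its proenzyme, overlapped, at 747 to 1204 and 511 to 948. The remaining lysyl oxidases overlapped, with log2 fold changes of -0.33 (SE 0.31) for LOXL3 and 0.21 (SE 0.28) for LOXL4. ATP7A, which supplies the copper that lysyl oxidases need, was at 1068 to 1134 in LF/LCL, 1068 and 1286 in cows 97 and 856, and 150 in cow 489215.

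Genes for elastin-degrading proteases and their inhibitors were a list of 18, of which 13 had a row and 10 were tested. Their median log2 fold change was -0.38 (-0.77 over the 11 tested without cow 489215). Of the 10, 8 were negative, against 51.4% of all genes tested, and 0 passed the adjusted limma threshold. MMP2, a gelatinase that also cleaves elastin, was at 10524 to 14848 in LF/LCL and at 5327 to 8707 in SF/SCL, without overlap. MMP14, the membrane protease that activates MMP2, was at 5195 to 6209 and 1572 to 2932, and the study had already listed it as higher in LF/LCL. CTSS, cathepsin S, a lysosomal protease with elastase activity, was higher in every SF/SCL cow, at 3684 to 4288 and 4640 to 5082, a log2 fold change of 0.31 (SE 0.16). CTSL2 had the most positive log2 fold change of the list, 0.40 (SE 0.30), or 0.24 without cow 489215, but its groups overlapped. MMP7, another metalloproteinase that cleaves elastin and is made by epithelia, did not pass the filter, at 7.51 to 11.4 in LF/LCL and higher in every SF/SCL cow, up to 140 in cow 97. The inhibitor TIMP2 overlapped, at 14838 to 18257 and 8709 to 15332. Without cow 489215 limma called 6 of 11 tested, all lower in SF/SCL (MMP2, MMP14, CTSK, TIMP1, TIMP2 and SERPINA1), against 7.92% of all genes. SERPINA1, a serine protease inhibitor that blocks neutrophil elastase, was at 468 to 947 in LF/LCL, 30.3 and 2.28 in cows 97 and 856, and 2510 in cow 489215.

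**Figure D5:**
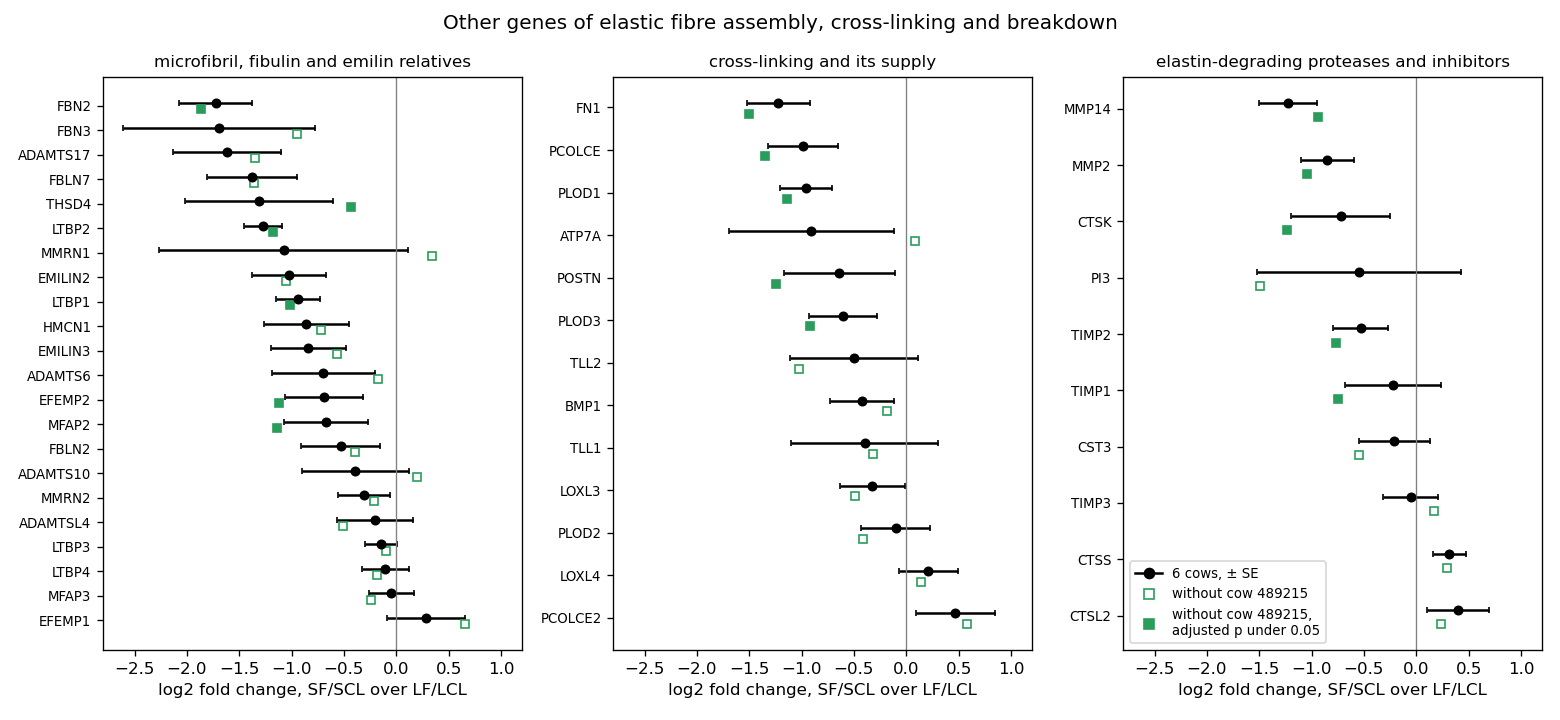
Log2 fold change, SF/SCL over LF/LCL (x axes), of the tested genes in 3 lists, with ± SE for all 6 cows (circles) and the value without SF/SCL cow 489215 (squares, filled where the adjusted p was under 0.05). FBN2 and LTBP2 lie far below 0 with and without that cow, while EFEMP1, LOXL4, PCOLCE2, CTSS and CTSL2 lie above 0 in both.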

How the data were processed

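The signal values the authors deposited are HTSeq-count reads per Ensembl gene, scaled in each library by its DESeq size factor. Polyadenylated RNA had been sequenced as paired ends and aligned with TopHat2 and Bowtie2 to the masked bovine assembly UMD3.1. Reads mapping to several places were left out. The strand setting of the counting is not given in the sources used here, so reads of overlapping genes on opposite strands could not be separated. In the RefSeq annotation of another assembly (NIAB-ARS_B.indTharparkar_mat_pri_1.0, used for neighbourhood only), 9 of the 10 members overlapped no other gene and LOXL2 overlapped a small nucleolar RNA.

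Groups and cow numbers came from the sample titles. Each library's values were whole multiples of 1 step (100% within 0.01 reads), from which reads were recovered. The main test was limma 3.58.1 in R 4.3.3 (trend, robust) on log2(value + 1), without covariates, over the 15387 genes with a mean above 5 and above the SD, with Benjamini-Hochberg adjustment over all of them and a threshold of 0.05. The filter follows the study's written methods, in which the test was DESeq. A filter on the mean alone, tried as an alternative, kept 15922 genes, the number the study reports as analysed in the isthmus. By number the study's tested set thus matches the filter on the mean alone and not the 15387 genes used here. Recovered reads were tested with edgeR 4.0.16 (quasi-likelihood, TMM) and with DESeq2 1.42.0, which left an adjusted p for 15378 genes. Other alternatives were pseudocounts of 0.5 and 8, other filters, TMM and CPM scaling, and leaving out each cow. Fits without a cow applied the filters anew. An interval for a fold change uses limma's moderated standard error. A read count of 0 allows up to 3 reads. With 3 cows against 3 an exact test of 1 value could not give a p below 0.1. Each p-value rests on the spread between separate cows, with the variance of each gene moderated by that of the other genes. In fits without a cow that spread comes from fewer cows. The tests were tried on simulated data with known changes. Levels were compared within a gene and not between genes, since transcript lengths were not used. Named genes were the 10 members and a part of the other lists. That part was drawn from genes called with or without a cow, genes without overlap, the largest changes and markers needed to describe a cell type. LTBP3, LTBP4, BMP1, LOXL3, LOXL4, ATP7A and TGFB1 were named after their values had been seen. The members and lists were chosen with earlier results of these data known. Plots used matplotlib 3.10.9 and calculations Python 3.11.15.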

Additional observations from a re-analysis of the deposited data

How the results depend on the processing

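No member passed the adjusted threshold under edgeR with either normalization, another pseudocount, another filter, or TMM or CPM scaling, and with DESeq2 3 members and 409 genes passed. Leaving out a cow in turn gave 0 to 5 members past the adjusted threshold, 3 to 9 past an unadjusted p of 0.05, 4 to 9 without overlap and 0 to 2827 genes past the adjusted threshold. The upper end of all of these came without cow 489215, and leaving out any other cow left 0 members and 0 genes past the adjusted threshold. Without cow 489215, 33.9% of all genes had an unadjusted p under 0.05 in limma and 52.0% did not overlap. These shares were not computed for the fits without another cow. Without LF/LCL cow 79, 3 members kept an unadjusted p under 0.05, against 5 with all cows. Without cow 489215, and chosen after seeing the data, edgeR called 4 members and 2805 genes, DESeq2 8 and 3922, limma after TMM rescaling 7 and 2832, and limma on CPM 4 and 2892, with 9 to 10 members at an unadjusted p under 0.05. MFAP4, whose log2 fold change ran from -0.36 to 0.55 when each cow was left out, turned from higher to lower in SF/SCL without that cow, with log2 fold changes of -0.36 in limma, -0.35 in edgeR, -0.36 in DESeq2, -0.40 after TMM rescaling and -0.32 on CPM, and the cause was not tested. The other 9 members stayed below 0 under all 19 alternatives. Members without overlap numbered 5 after TMM rescaling and 6 on CPM, against 4, and the shares over all genes on the TMM and CPM scales were not computed. No paired analysis was possible because the groups share no replicate number. With 3 cows a group, 1 of them apart from the rest, intervals are wide, that of LOXL1 running from -1.76 to 0.39.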

Other observations

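TGF-beta, the growth factor that microfibrils hold in latent form, was followed through 10 ligand, receptor and SMAD genes, all tested. Their median log2 fold change was -0.51 (-0.17 without cow 489215). Of the 10, 7 were negative, against 51.4% of all genes tested, and 0 passed the adjusted limma threshold. TGFB2 was at 1139, 1014 and 1018 in LF/LCL and at 605, 632 and 881 in SF/SCL, and TGFB3 at 1184, 1293 and 808 against 624, 532 and 716. Neither overlapped, while TGFB1 did, with a log2 fold change of 0.14 (SE 0.28), which was -0.08 without cow 489215. SMAD7, an inhibitor of the pathway that TGF-beta itself induces, was at 173 to 283 in LF/LCL and at 97.5 to 130 in SF/SCL. TGFBR3 had the most negative log2 fold change of the list, -1.02 (SE 0.68), or -0.23 without cow 489215, and its groups overlapped. SMAD4, the shared partner of the signalling SMADs, was higher in every SF/SCL cow, at 5751 to 7719 against 4920 to 5422, with a log2 fold change of 0.30 (SE 0.18). Without cow 489215 limma called 4 of the 10, all lower in SF/SCL (TGFB2, TGFB3, TGFBR2 and SMAD7), against 7.92% of all genes.

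The genes whose centred log2 values lay closest to those of ELN over the 6 libraries were SDR42E2, ADORA2A and SGMS2, with mean absolute differences of 0.16, 0.16 and 0.17, against a median of 0.69 over the genes compared. ADORA2A, an adenosine receptor, was at 213, 91.3 and 121 in LF/LCL and at 36.8, 92.7 and 75.9 in SF/SCL. SDR42E2 had few reads, at 3.25 to 20.9. Closest to LOX were CLCN4, FAM155A and SPEG, with mean absolute differences of 0.07, 0.08 and 0.09, against a median of 0.62. CLCN4, a chloride-proton exchanger, was at 973, 916 and 862 in LF/LCL and at 474, 411 and 301 in SF/SCL, so that cow 489215 was the lowest for it as for LOX. These are descriptions with no test, over libraries in which cow 489215 is at an extreme for most genes.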
